A study of Mus musculus with 3264 samples.

Results

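Protein chaperones are the subject here: 36 named genes whose products fold, hold or clear proteins in the cytosol, the mitochondria and the endoplasmic reticulum (ER), measured in single mouse cells. They were taken from a list by symbol, and all 36 were rows of both deposited tables, which hold 24781 genes for a mixture of 3 cell lines and 25051 genes for peripheral blood mononuclear cells (PBMC). By compartment they are 15 ER chaperones, 7 genes of ER stress sensing and ER-associated degradation, 11 cytosolic or nuclear genes and 3 mitochondrial genes. The lines were a hematopoietic progenitor cell (HPC) line, a T cell line and a leukemia line; their names, strain and culture are not given in the labels, and the labels name no drug and no modified gene.

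Every sample was 1 well meant to hold 1 cell. The cells were picked by ALPS, an automated imaging and picking system, after time-lapse imaging (16 plates), at random (4 plates) or by targeted line (4 plates), or they were sorted by FACS (2 plates). PBMC of C57BL/6J mice, whose age and number are not given in the labels, were picked by ALPS after time-lapse imaging (8 plates). Target wells kept their labelled line, with 73 HPC wells as the smallest group among them. The other wells took the line whose target wells they most resembled. That profile used genes expressed in target wells, without the chaperones and other folding genes studied here and without the ribosomal RNA gene. Each line of the FACS set, the smallest, had 52 to 64 wells.

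Chaperones bind unfolded stretches of other proteins. Heat shock proteins of the Hsp70 and Hsp90 families use ATP and are steered by J-domain proteins and nucleotide exchange factors, and in the mitochondrial matrix newly imported proteins pass from an Hsp70 to the Hsp60 and Hsp10 chamber. In the ER, misfolded proteins activate the sensors Atf6, Ern1 (IRE1) and Eif2ak3 (PERK), which induce the ER chaperones and the degradation machinery; in the cytosol, Hsf1 does the same for the heat shock genes. Blood cells use both arms: T cells when they are activated, and B cells when they become secreting plasma cells.

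The sensors and Hsf1 act through short promoter elements, and these are shown as the letters by which genes of either arm are commonly recognised. Promoters of 300 bases (250 before and 50 after each start) were read from RefSeq on GRCm38.p6, the assembly behind mm10, and 28 of the 36 genes had one; Atf6, Hsf1, Hsp90aa1, Hsp90ab1, Hspa8, Hspa9, Hyou1 and Manf did not. Elements of 3 kinds were searched on both strands: the ER stress element ERSE (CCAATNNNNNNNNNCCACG), its variant ERSE-II (ATTGGNCCACG), and a heat shock element of 3 alternating units (GAANNTTCNNGAA or TTCNNGAANNTTC). ERSE was present in 8 of the 28 genes and in 0.1187% of all 32851 promoters, ERSE-II in 2 genes and 0.03653%, and the heat shock element in 3 genes and 0.6027%. Windows of 30 bases on the gene's strand follow, with the element in capitals; those of Hspa5 and Dnajb11 lie in an annotated exon and the others of this group do not.
Hspa5 (chr2:34772020-34772049, + strand): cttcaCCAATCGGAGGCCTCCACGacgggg
Calr (chr8:84847069-84847098, - strand): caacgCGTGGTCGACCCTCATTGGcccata
Canx (chr11:50325794-50325823, - strand): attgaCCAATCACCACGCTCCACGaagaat
Pdia6 (chr12:17266486-17266515, + strand): agagaCCAATGAAAGGCGGCCACGgcgtgg
Dnajc3 (chr14:118937822-118937851, + strand): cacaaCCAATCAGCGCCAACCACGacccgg
Creld2 (chr15:88819515-88819544, + strand): cttctCGTGGCGAGCCTCAATTGGtccaca
Syvn1 (chr19:6046527-6046556, + strand): cgcaaCCAATCGGCGGTAGCCACGggaaca
Herpud1 (chr8:94386368-94386397, + strand): cgggcgctgATTGGGCCACGttggacactg
Dnajb11 (chr16:22857843-22857872, + strand): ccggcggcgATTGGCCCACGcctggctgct

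Hsp90b1, the ER Hsp90, held 2 ERSE matches in 1 stretch outside annotated exons (chr10:86705510-86705694, - strand), the first as written and the second on the opposite strand.
Hsp90b1: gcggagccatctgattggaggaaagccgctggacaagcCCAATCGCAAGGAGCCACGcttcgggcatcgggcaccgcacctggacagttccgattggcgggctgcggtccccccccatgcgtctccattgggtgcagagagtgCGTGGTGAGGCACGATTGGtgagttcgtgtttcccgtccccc

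The heat shock element was found in Hsph1, a cytosolic Hsp110, and in the mitochondrial pair Hspd1 (Hsp60) and Hspe1 (Hsp10). Hspd1 and Hspe1 lie head to head on chromosome 1, so that their promoter windows overlap and the matches of both are the same bases read on opposite strands. Each gene's window holds 2 overlapping matches, of which 1 is shown; both lie in annotated exons of the pair.
Hspe1 (chr1:55088051-55088080, + strand): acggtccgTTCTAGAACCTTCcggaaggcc
Hspd1 (chr1:55088050-55088079, - strand): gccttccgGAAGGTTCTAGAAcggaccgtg
Hsph1 (chr5:149636287-149636308, - strand): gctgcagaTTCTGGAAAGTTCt

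Depth set what could be read. The deposited values are expected counts of molecules, and a cell line well held at least 10005, with medians of 42537 in time-lapse, 38194 in random, 35223 in target and 26843 in FACS wells; PBMC wells held a median of 2147. The ribosomal RNA gene Rn45s took a median of 11.67% to 13.93% of a well's counts in the time-lapse lines, 8.05% to 9.67% in the random, 10.38% to 11.76% in the target and 4.725% to 5.97% in the FACS lines. Most FACS wells had another profile than their label, and 3 HPC-labelled target wells, all on plate 4, had another profile too. The line by profile and by a list of line markers was the same in every FACS and random well and in all but 1 time-lapse well. T-profile time-lapse wells stood apart by their own markers: Thy1, the T cell surface antigen, was at 5.842 CPM against 661.4 CPM in random T wells. The 5 T markers summed to 654.3 CPM against 1907 CPM. The labels of time-lapse wells name no line, so whether these wells hold the T line of the other sets is not known.

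Counts were summed over the wells of a line on a plate and scaled to counts per 1000000 (CPM). No label names a culture or an animal, so each line in each set is 1 sample, plates are technical repeats, and no p-value is given. In place of a test, a gene counted as higher or lower by the 2-fold rule when it reached 10 CPM and 30 counts in either group, differed at least 2-fold on the log2(CPM + 1) scale in the mean over plates, and went the same way on every plate. Comparisons of the lines share wells (the leukemia wells of a set serve both T and HPC), so their results are given side by side. In these bulk-like sums, fewer cells of a state and less RNA per cell cannot be told apart.

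Summed by compartment, cytosolic chaperones were the most counted group, and the lines did not rank alike in every compartment. Most of the cytosolic sum came from 3 genes, so this sum and the ratios over it mainly reflect these. In random T wells Hsp90aa1, Hsp90ab1 and Hspa8 had 5973, 6267 and 3041 CPM of 16800 CPM. In random HPC wells they had 2293, 4173 and 2333 CPM of 9506 CPM. Of these genes, Hsp90aa1 differed most between T and leukemia random wells. The 11 cytosolic genes summed to 9127 to 11994 CPM over the sets in HPC wells, 13173 to 18779 CPM in T wells and 11067 to 12777 CPM in leukemia wells (means over plates). The 3 mitochondrial genes ranked another way, at 1166.5 to 2176 CPM in HPC, 2393 to 2794 CPM in T and 2953 to 3495 CPM in leukemia wells. These ranges of set means do not overlap, but single plates did in some sets. HPC plates reached 2409 CPM in target wells, where T began at 2233 CPM, and the FACS plates of these lines overlapped too. Time-lapse T plates reached 2960 CPM, where leukemia began at 2517 CPM. The 15 ER chaperones were nearer each other, at 3400 to 4191 CPM in HPC, 3918 to 4449 CPM in T and 4157 to 4956 CPM in leukemia wells.

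**Figure D1:**
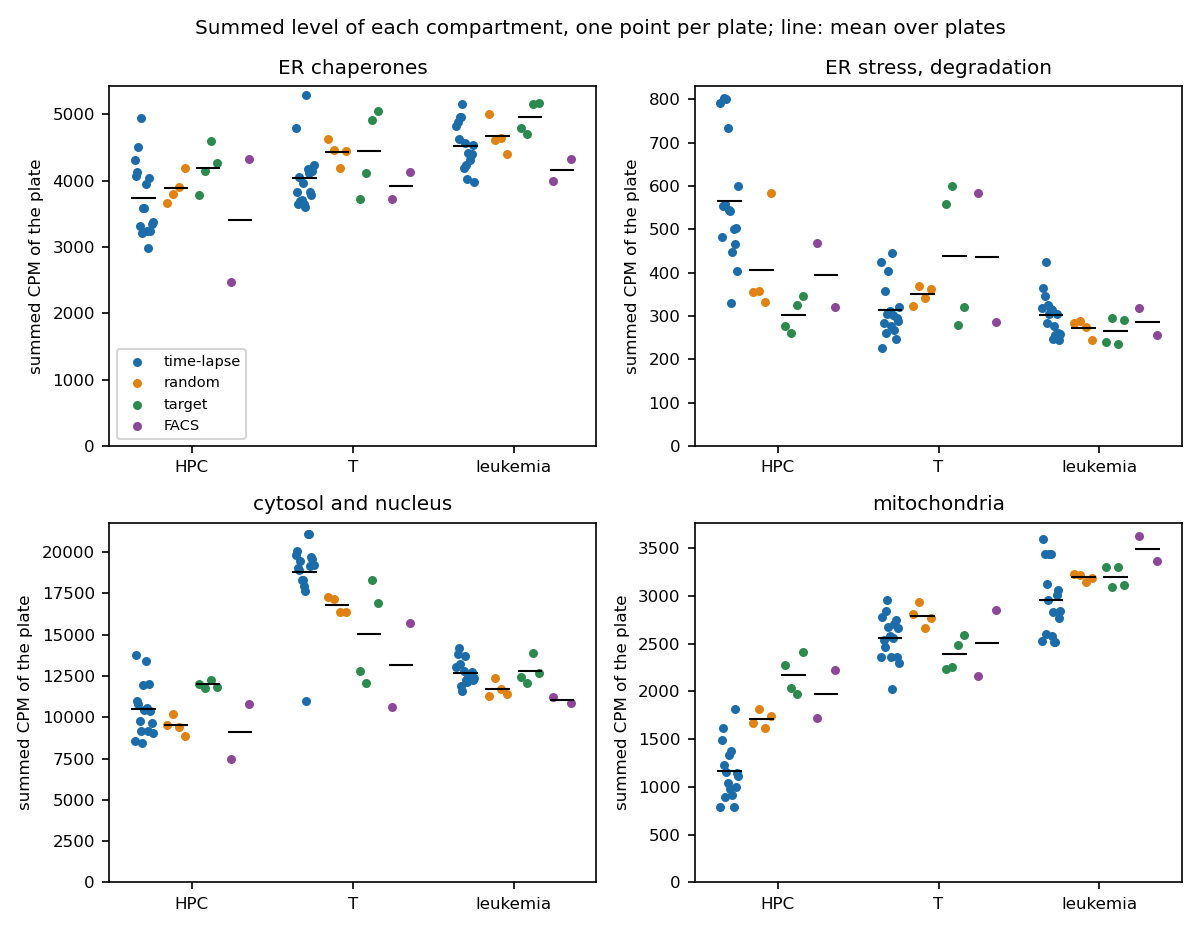
Summed CPM of each compartment (y axis, from 0) by cell line and set, with 1 point per plate and a line at the mean over plates. By their means, mitochondrial chaperones stand lowest in HPC wells and highest in leukemia wells in all 4 sets, and cytosolic chaperones stand highest in T wells.

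Expressed as a ratio of counts, mitochondrial over cytosolic chaperones came to 0.1124 in time-lapse, 0.1786 in random, 0.182 in target and 0.2126 in FACS HPC wells. In T wells the same ratio was 0.1376, 0.167, 0.1602 and 0.1885, and in leukemia wells 0.2321, 0.273, 0.2514 and 0.3154, in the same order of sets. Leukemia wells had the highest ratio in each set, and the HPC ratio lay above the T ratio in the random, target and FACS sets but below it in the time-lapse set. In this ratio HPC and T plates overlapped in the target and time-lapse sets. ER over cytosolic chaperones ran from 0.2085 to 0.2979 in T wells, below the 0.3494 to 0.4015 of HPC wells and the 0.3534 to 0.3999 of leukemia wells. Single plates overlapped in all sets but the random one. T plates reached 0.3407 in target and 0.3493 in FACS wells, where HPC plates began at 0.3136 and 0.3318. Time-lapse T plates reached 0.48, where HPC began at 0.2939 and leukemia at 0.3207.

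**Figure D2:**
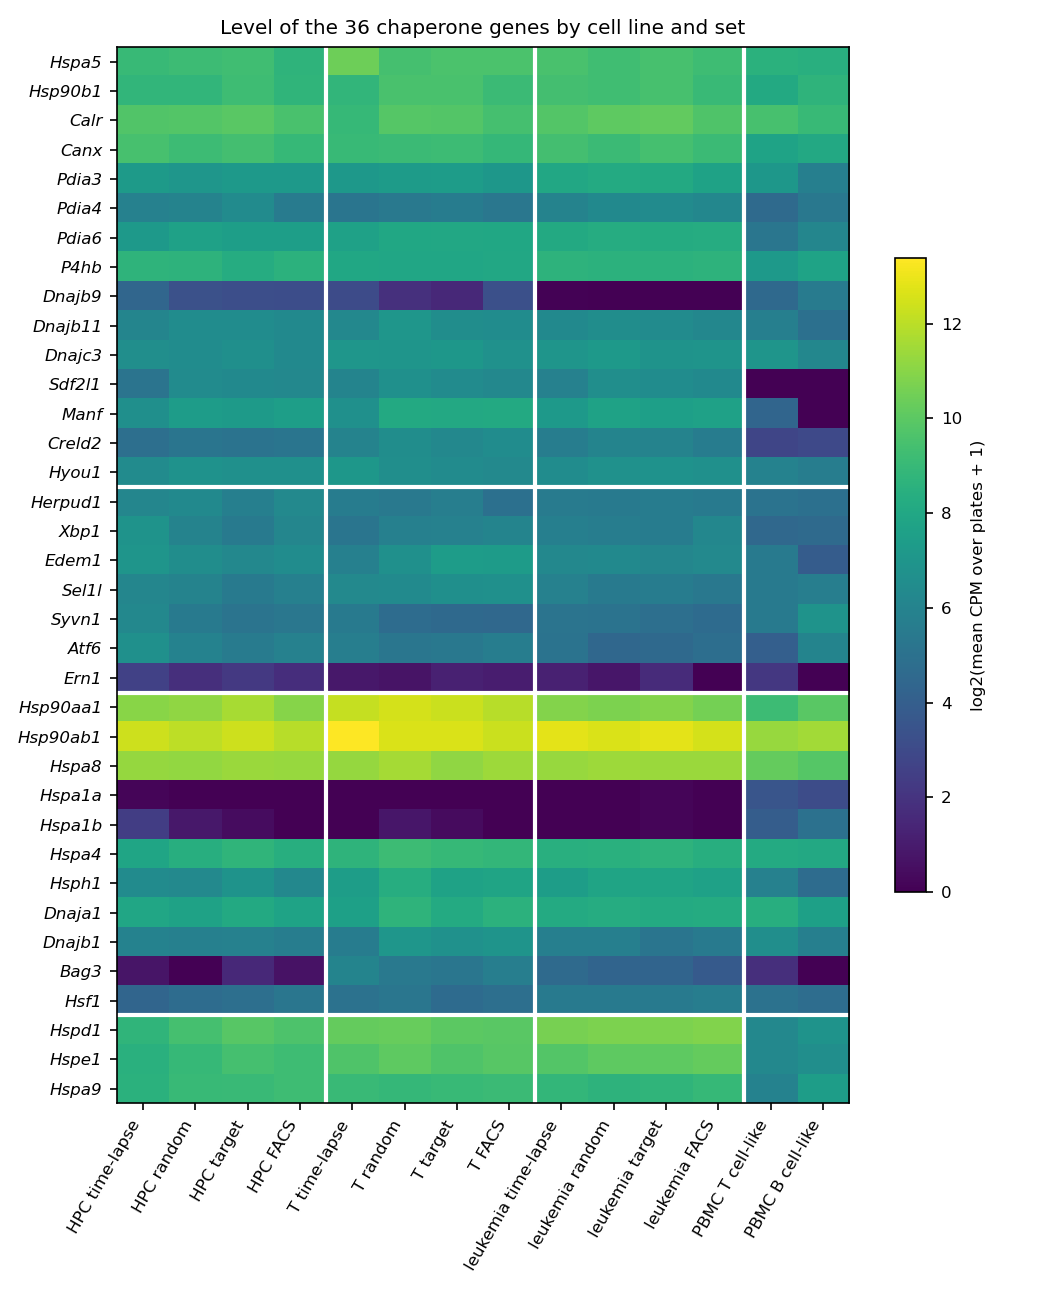
Mean level of each of the 36 genes over plates, as log2(CPM + 1), in each line and set and in PBMC (columns), with rows grouped by compartment; values are not per length, so they are to be read along a row. Bag3 is near 0 in the HPC columns and Dnajb9 in the leukemia columns.

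Between the lines at most 7 members passed the 2-fold rule in 1 direction in a comparison. Among target wells, 4 of the 36 were higher and 0 lower in T than in leukemia wells, where 14.8% of all 8263 genes tested were higher and 12.2% lower. In HPC against leukemia target wells 0 were higher and 1 lower (all genes 12.5% and 12.9%), and in HPC against T target wells 0 and 3 (12.6% and 15.5%). In random wells T against leukemia gave 3 higher and 0 lower (14.9% and 12.8%), HPC against leukemia 1 and 5 (16% and 11.8%), and HPC against T 0 and 6 (16.8% and 14.7%). Over all sets 31 to 33 of the 36 passed the filter on low values, and the shares of all genes are of those that passed it. The count of T against leukemia in target wells was 2 without plate 1 or plate 2, and that of HPC against leukemia was 3 without plate 1, 3 or 4. It was also 3 without the 3 HPC-labelled wells of another profile.

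Between lines 2 to 9 members were called in time-lapse wells and 4 to 6 in FACS wells. In time-lapse wells T against leukemia had 2 higher and 0 lower (all genes 14.9% and 11.3%), HPC against leukemia 4 and 3 (13.7% and 13%), and HPC against T 2 and 7 (13.5% and 16.6%). In FACS wells the same comparisons had 4 and 0 (16% and 11.4%), 1 and 3 (12.8% and 13.1%), and 1 and 5 (11.9% and 17.4%). The FACS count of HPC against leukemia rested on single plates: without plate 1 it was 0, and without plate 2 it was 1 higher and 7 lower. Ern1, Hspa1a and Hspa1b passed the filter in none of these, and Dnajb9 only where time-lapse HPC wells took part.

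Fewer calls were repeated in all 4 sets, with T-profile time-lapse wells counted as T wells. In T against leukemia 1 member, Hsp90aa1, was higher in all 4 sets and 0 were lower, where 6.76% and 5.84% of the 7129 genes that passed the filter in all sets were. In HPC against leukemia 0 were higher and 0 lower in all 4 (all genes 7.39% and 6.27%), and in HPC against T 0 were higher and 2 lower, Creld2 and Bag3 (6.43% and 5.96%). The median difference of the members that passed lay between -0.43 and 0.15 (log2) over the 12 comparisons of lines, where the median of all genes lay between -0.19 and 0.09.

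**Figure D3:**
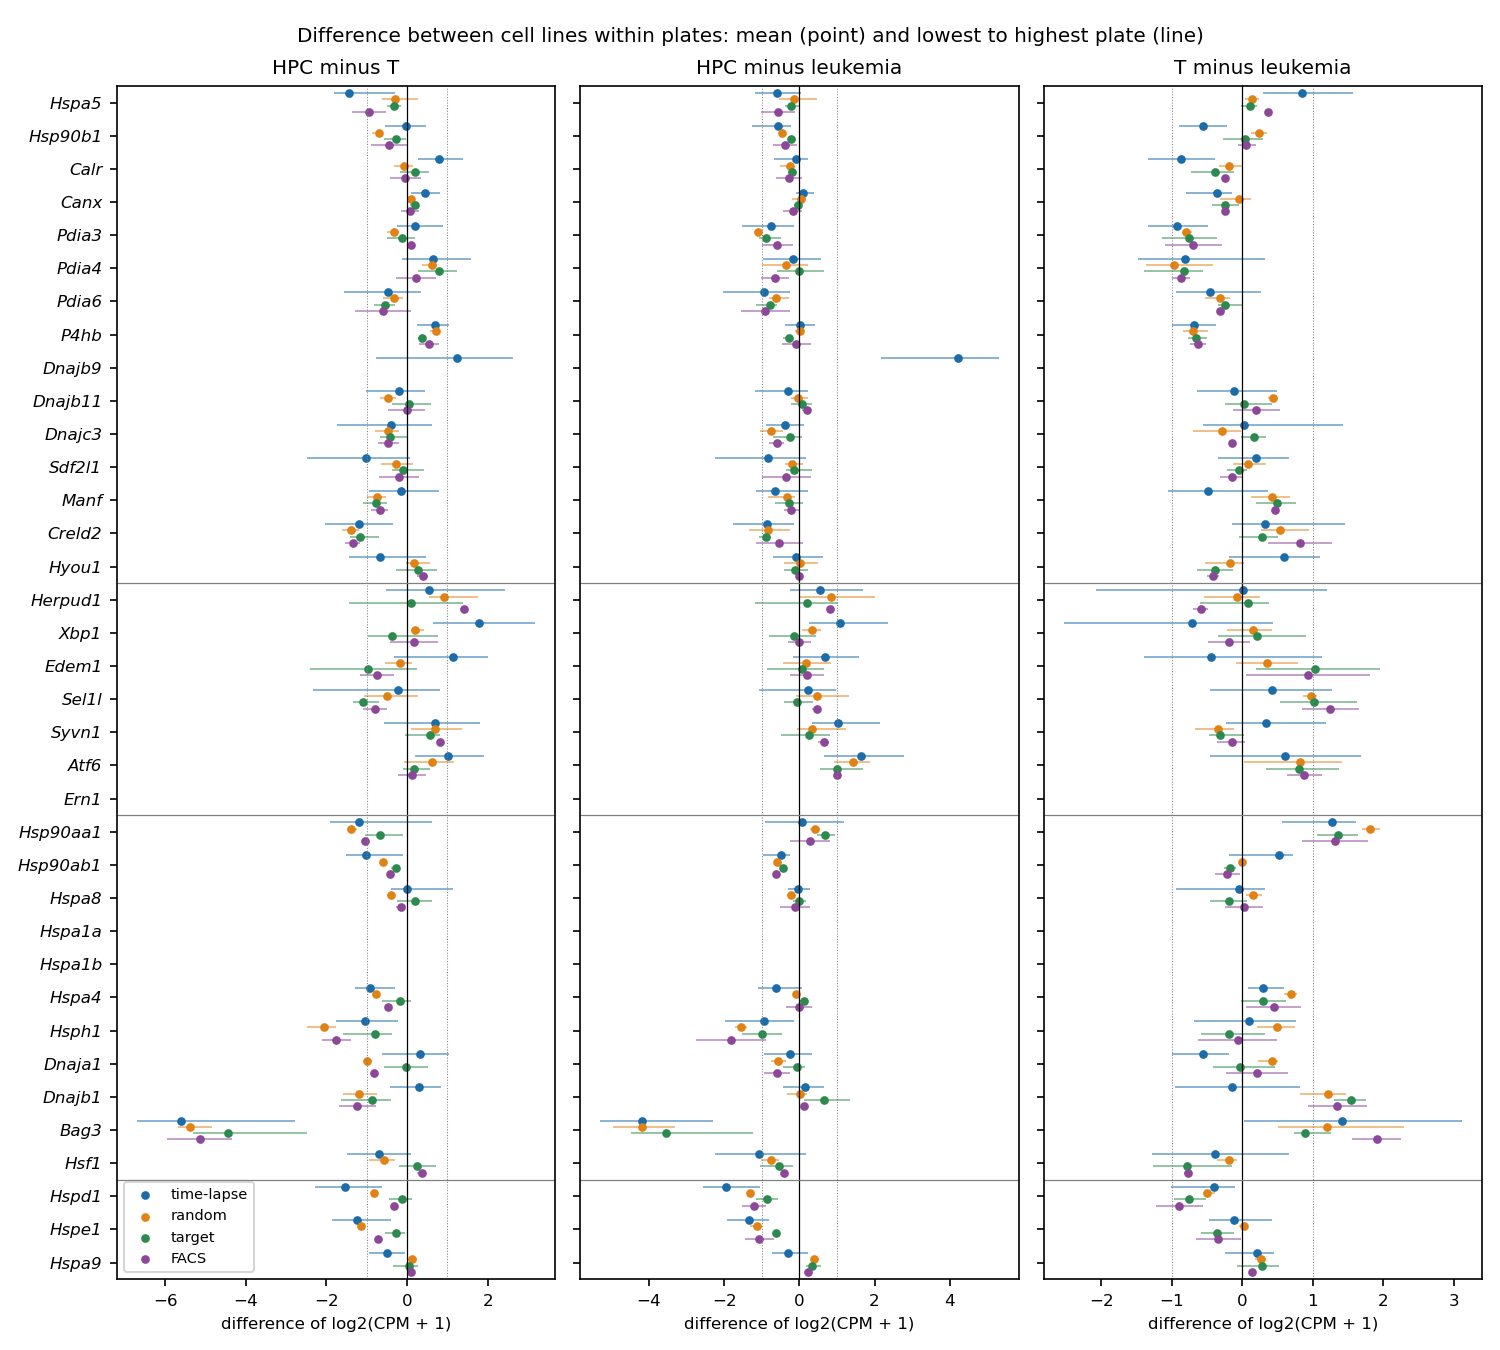
Difference of log2(CPM + 1) between lines within plates (x axis) for each member, 1 panel per pair of lines and 1 colour per set; points are means over plates, horizontal lines run from the lowest to the highest plate, and dotted lines mark 2-fold. Members that did not pass the filter on low values have no point. Most members lie between the dotted lines, while Bag3 lies far to the left in both HPC panels and Hsp90aa1 to the right in T minus leukemia.

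In the cytosol the T wells differed from leukemia wells by 3 members of the heat shock machinery. Hsp90aa1, the inducible cytosolic Hsp90, had 4068, 3602, 6762 and 6111 CPM on the 4 plates of T target wells, against 1713, 1727, 2370 and 1963 CPM in leukemia wells, a log2 difference of 1.36. In random wells it had 6426, 6115, 5647 and 5703 CPM in T and 1663, 1765, 1740 and 1656 CPM in leukemia, a difference of 1.81. In neither set did the lines overlap. FACS wells had 2883 and 5065 CPM in T and 1603 and 1470.2 CPM in leukemia (1.32). The 16 time-lapse plates had a lowest, median and highest level of 2364, 4745 and 5815 CPM in T and 1607, 1840 and 2435 CPM in leukemia (1.28), overlapping through T plate 10 alone, the next T plate being at 4159 CPM.

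Its constitutive partner Hsp90ab1 did not follow. Hsp90ab1 differed between T and leukemia wells by -0.17 in target, 0.00 in random, -0.21 in FACS and 0.53 in time-lapse wells, none of them called. HPC wells held less Hsp90ab1 than leukemia wells in every set (-0.44, -0.58, -0.61 and -0.48 in the same order), also short of 2-fold. For Hsp90aa1 the HPC wells lay in between in the target set, at 2896, 3358, 3255 and 2973 CPM, and 2-fold below T wells in random (-1.38) and FACS wells (-1.03). In time-lapse wells Hsp90aa1 averaged 2089 CPM in HPC and 4673 CPM in T (-1.20), but 1 of the 16 plates went the other way and it was not called. In the same wells Hsp90ab1 averaged 5286 CPM in HPC and 10685 CPM in T, and this difference was called (-1.01).

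Dnajb1 (Hsp40), a J-domain partner of Hsp70 and a classic heat shock gene, was higher in T than in leukemia wells in 3 of the sets. It had 92.8, 90.4, 131.6 and 110.1 CPM on the T target plates, against 36.3, 35.8, 38.4 and 31.8 CPM on the leukemia plates (1.54), with no overlap. The difference was 1.22 in random and 1.35 in FACS wells. In time-lapse wells it was -0.14, with means of 48.07 CPM in T and 53.15 CPM in leukemia. Against T wells, HPC wells had less Dnajb1 by the rule in random (-1.20) and FACS wells (-1.23). The difference was -0.88 in target wells, and in time-lapse wells it had the opposite sign (0.30, uncalled), with a mean of 59.74 CPM in HPC.

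**Figure D4:**
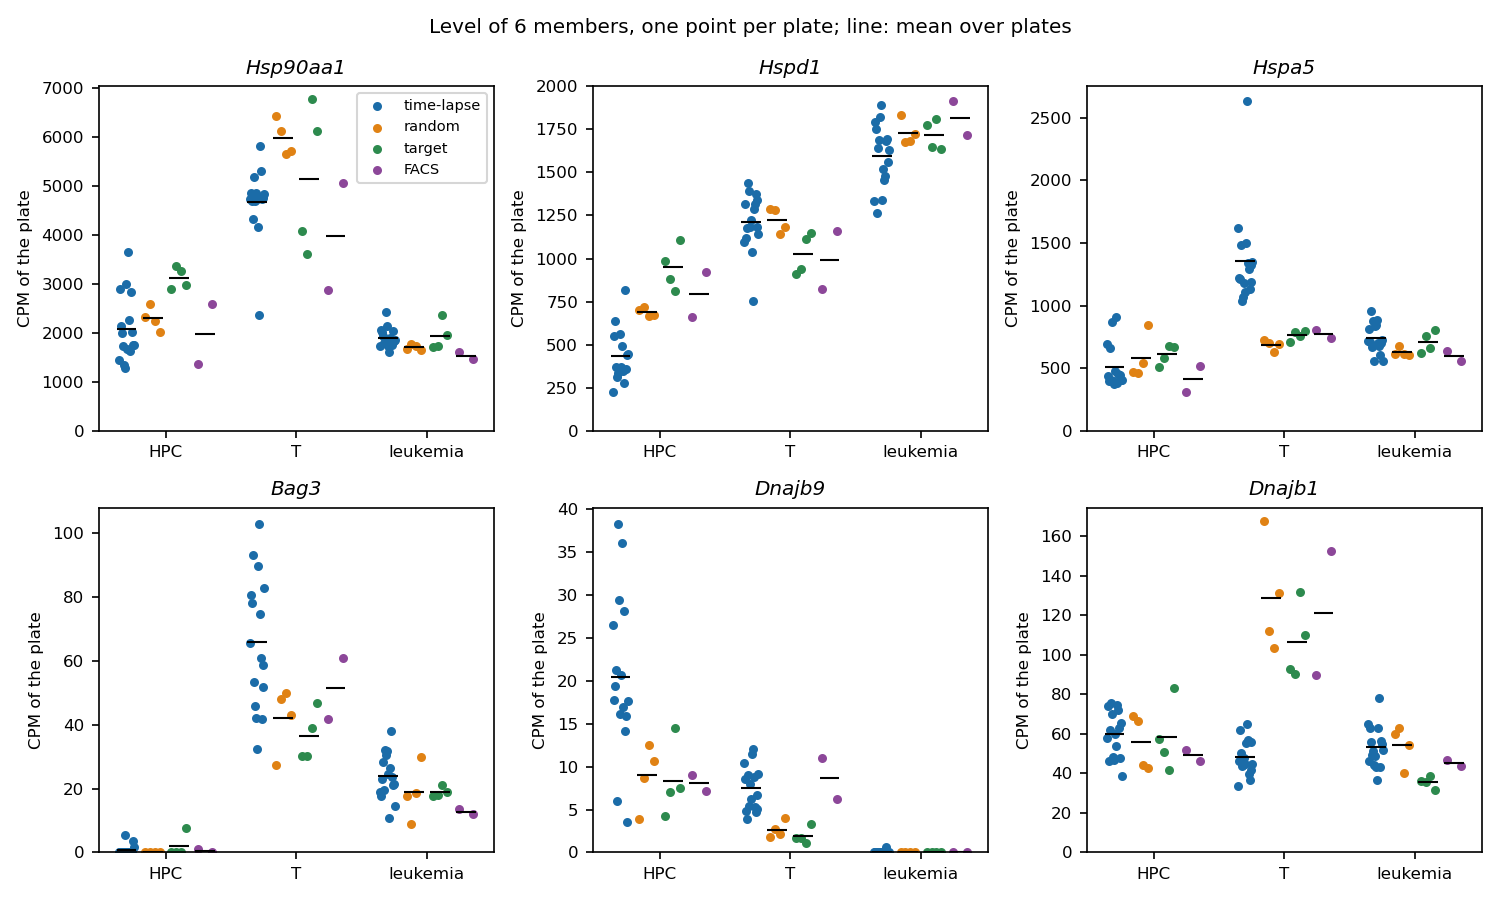
CPM of 6 members (y axis, from 0) by line and set, with 1 point per plate and a line at the mean over plates. Bag3 lies at or near 0 on the HPC plates, and the mean of Hspd1 is highest in leukemia wells in each set.

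Bag3, which links Hsp70 to selective autophagy as a nucleotide exchange factor, was close to absent from HPC wells. Across all HPC wells of the 4 sets it had 10.5 counts, and 0.0% of random HPC wells held one, which allows a share of up to 2.703%. Of the 5 counts in HPC-labelled target wells, all 5 sat in the wells of another profile on plate 4. By contrast a count was found in 93.04% of time-lapse, 85.71% of random, 71.67% of target and 76.56% of FACS T wells. Leukemia wells stood between the other lines, at 53.61%, 49%, 49.21% and 33.33% in the same order of sets.

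At equal depth, with every well thinned to 10000 counts, Bag3 was found in 0.0% of random HPC wells (exact 95% interval 0.0% to 3.269%), 37.82% of T wells (29.09% to 47.16%) and 19% of leukemia wells (11.84% to 28.07%). Intervals of shares, here and below, cover the drawing of wells only, and the interval of a ratio covers counting error only. Neither covers differences between plates or cultures. In random wells Bag3 was at least 50.22-fold lower in HPC than in T wells and at least 21.01-fold lower than in leukemia wells, each against a floor of 3 counts over the group. On the random plates T wells had 27.4, 48, 49.8 and 43 CPM and leukemia wells 17.6, 8.9, 18.6 and 29.9 CPM (1.20), so the plates of these lines overlapped. T was higher than leukemia by 1.91 in FACS and 1.42 in time-lapse wells, and by 0.89 in target wells, short of the rule.

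Hsph1, an Hsp110 that exchanges nucleotides on Hsp70, was low in HPC wells. It had 80.5, 90.8, 81.2 and 56 CPM on the random HPC plates, 367.5, 318.9, 278.8 and 314.7 CPM on the T plates and 233.1, 276.4, 214.8 and 186.3 CPM on the leukemia plates. All HPC plates lay below all plates of the other lines, and the differences were -2.05 against T and -1.56 against leukemia. In target wells they were -0.80 and -0.99, and in FACS wells -1.75 and -1.81. In time-lapse wells HPC lay below T by -1.05 and below leukemia by -0.95, and the difference from T alone passed the rule. Against leukemia the rule was passed in the random and FACS sets.

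The other cytosolic genes passed the rule between no lines in any set. Hspa8, the constitutive Hsp70, averaged 2333 to 2660 CPM over the sets in HPC, 2313 to 3041 CPM in T and 2569 to 2726 CPM in leukemia wells. Hspa4, another Hsp110, ranged over 230.5 to 438.4, 423.6 to 574.8 and 334.6 to 402.99 CPM in the same order of lines. Dnaja1, a J-domain protein, ranged over 209.8 to 278.6, 192.8 to 415.3 and 285.3 to 310.4 CPM. Hsf1, the heat shock factor itself, stayed low at 19.96 to 36.64, 24.48 to 37.67 and 42.44 to 49.35 CPM.

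The stress-inducible Hsp70 genes had few counts. Hspa1a had 2.75 counts and Hspa1b 56.75 counts over all 1836 cell line wells. They share part of their sequence, as 1716 of the 2918 stretches of 50 bases in the Hspa1a transcript also occur in Hspa1b. Molecules may therefore be split between them. Of the Hspa1b counts, 44.5 came from 19 time-lapse HPC wells, and 3 of those wells, with 10, 9.5 and 6 counts, held 57.3% of them. The pair together averaged 4.574 ± 9.347 CPM (SD, n = 16 plates) in time-lapse HPC wells.

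In the mitochondria HPC wells had less of the Hsp60 and Hsp10 chamber than leukemia wells, by the rule in 3 of the sets, while the import Hsp70 was not called. Hspd1, the Hsp60, had 700.1, 721.6, 664.9 and 673.7 CPM on the random HPC plates, 1288.6, 1282.3, 1142.7 and 1184.98 CPM on the T plates and 1834, 1676, 1681 and 1724 CPM on the leukemia plates. No plate of one line overlapped another line, and HPC lay below leukemia by -1.32 and below T by -0.83. By the rule, Hspd1 and Hspe1 were lower in HPC than in leukemia wells in the random, FACS and time-lapse sets. Neither passed it in the target set. Of all genes, 11.8% (random), 13.1% (FACS), 13% (time-lapse) and 12.9% (target) were lower. In target wells Hspd1 had 987.2, 884.3, 814.01 and 1108.2 CPM in HPC, 909.5 to 1145.9 CPM in T and 1776, 1646, 1812 and 1633 CPM in leukemia wells. There HPC and T overlapped, and HPC against leukemia (-0.86) fell short of 2-fold. HPC target plate 4 included the 3 wells of another profile.

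The gap was wider in the time-lapse wells. Hspd1 had a lowest, median and highest plate of 226.3, 370.1 and 818.6 CPM in HPC, 752.6, 1201.2 and 1437.3 CPM in T and 1262.9, 1638 and 1893 CPM in leukemia wells, with HPC below leukemia by -1.95 and below T by -1.54. FACS wells gave -1.21 against leukemia and -0.32 against T.

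Hspe1, the Hsp10 lid of the chamber, had 519.7, 549.8, 438.7 and 470.3 CPM on the random HPC plates. T plates had 1080.3, 1149.7, 1044.9 and 1076.7 CPM and leukemia plates 1043.95, 1101.3, 1081.3 and 1049.2 CPM, so T and leukemia overlapped and HPC lay below both (-1.14 and -1.12). Against leukemia the HPC difference was -0.62 in target, -1.06 in FACS and -1.35 in time-lapse wells. Hspa9 (mortalin), the matrix Hsp70, was called in none of the 12 comparisons of lines; HPC against leukemia gave 0.33 in target, 0.39 in random, 0.24 in FACS and -0.29 in time-lapse wells.

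Among the 15 ER chaperones T and leukemia wells differed by no called gene in any set. Hspa5 (BiP), the ER Hsp70 and the standard readout of ER stress, had 473.6, 465.4, 543.1 and 844.2 CPM on the random HPC plates, 725.7, 705.9, 630.1 and 696.5 CPM on the T plates and 612.6, 681.9, 612.3 and 603.8 CPM on the leukemia plates, and HPC overlapped both other lines. In time-lapse wells it averaged 512.1 CPM in HPC and 1356.5 CPM in T, and HPC was lower (-1.43). Hsp90b1 (Grp94) averaged at most 602.99 CPM over the sets in HPC, 452.7 to 738.4 CPM in T and 535.3 to 708.03 CPM in leukemia wells. The lectin chaperones Calr, which is soluble, and Canx, which is anchored in the membrane, were called between no lines. Nor were Hyou1, an Hsp110-like partner of BiP, at 88.17 to 111.35 CPM in HPC, 77.47 to 134.8 CPM in T and 89.42 to 111.8 CPM in leukemia wells, and Dnajb11 (ERdj3), a J-domain partner of BiP.

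Creld2, a secreted ER stress gene with disulfide isomerase activity, was the ER member that separated HPC from T wells in all 4 sets. It had 35.6, 28.1, 32.7 and 34.7 CPM on the HPC target plates and 58.4, 67.3, 84.1 and 93.9 CPM on the T target plates (-1.17), and the plates did not overlap. The difference was -1.38 in random, -1.35 in FACS and -1.18 in time-lapse wells. Its difference from leukemia wells was -0.89 in target wells, short of 2-fold.

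Of the disulfide isomerases, Pdia3, which works with the lectin chaperones, was lower in HPC than in leukemia random wells, at 137.3, 138.2, 132.5 and 118.6 CPM against 302.4, 288.2, 271.7 and 276.1 CPM (-1.11). In the target, FACS and time-lapse sets the difference was -0.88, -0.58 and -0.74. P4hb averaged 315.4 to 412.7 CPM over the sets in HPC, 239.4 to 260.8 CPM in T and 384.9 to 407.8 CPM in leukemia wells, and Pdia4 and Pdia6 were called between no lines either.

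Dnajb9 (ERdj4), a J-domain protein that repositions BiP on the sensor Ern1, was all but missing from leukemia wells. Over all leukemia wells of the 4 sets it had 1 count. Random HPC plates had 3.952, 8.696, 12.5 and 10.71 CPM and T plates 1.784, 2.686, 2.195 and 3.999 CPM, and a count was found in 19.82% of HPC, 13.45% of T and 0.0% of leukemia wells, the last of which allows up to 3.0%. Against the 3-count floor of leukemia, Dnajb9 was at least 10.45-fold higher in random, at least 11.59-fold in target and at least 4.49-fold in FACS HPC wells. The means of these HPC wells stayed under 10 CPM. In time-lapse wells it had 185.67 counts in HPC and 1 in leukemia, a ratio of 352.1 per total count (exact 95% interval 62.43 to 13983).

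Among genes of ER stress sensing and degradation, Atf6 was higher in HPC than in leukemia wells, by the rule in 3 of the sets. Atf6, the sensor cleaved in the Golgi to a transcription factor, had 53.4, 41.5, 57.5 and 84 CPM on the random HPC plates and 27.9, 16.8, 14.9 and 25.8 CPM on the leukemia plates (1.43), with no overlap. HPC against leukemia gave a log2 difference of 1.0 in FACS and 1.63 in time-lapse wells, both called, and HPC exceeded T by 1.02 in time-lapse wells. In target wells, at 28.8, 49.3, 47.3 and 61.9 CPM against 19.4, 14.5, 26.3 and 32.2 CPM, the fold was 1.994 and so just missed the rule. T wells also lay above leukemia wells in all 4 sets, short of the rule. Atf6 averaged 37.66 CPM in random and 50.12 CPM in FACS T wells. Ern1 (IRE1), the sensor that splices Xbp1 mRNA, did not pass the filter, with 2.321 to 5.079 CPM in HPC, 0.6159 to 1.306 CPM in T and 0.0 to 2.144 CPM in leukemia wells.

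Xbp1, the transcription factor spliced by Ern1, differed between the lines in time-lapse wells and nowhere else by the rule. There it had a lowest, median and highest plate of 43.63, 108.1 and 199.8 CPM in HPC, 9.796, 35.27 and 85.29 CPM in T and 23.01, 53.68 and 81.18 CPM in leukemia wells, and the ranges overlapped although every plate gave the same direction. HPC was higher than T by 1.79 and than leukemia by 1.08. Syvn1 (Hrd1), the ubiquitin ligase of ER-associated degradation, was higher in HPC than in leukemia time-lapse wells by 1.04.

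Sel1l, the adaptor of Syvn1, was higher in T wells instead. It had 127.6, 116.4, 71.2 and 82.9 CPM on the T target plates, against 40.6, 46.5, 48.5 and 54 CPM on the leukemia plates (1.02), and HPC target plates lay at 52.5, 45, 43.7 and 40.8 CPM (-1.08 against T). T exceeded leukemia by 1.25 in FACS, 0.98 in random and 0.43 in time-lapse wells. Herpud1, a stress-induced membrane protein that organises the ligase complex, was called in FACS wells alone, at 79.18 CPM in HPC and 30.19 CPM in T on average (1.41); in target wells the HPC difference from T was 0.11.

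Edem1, a lectin that hands misfolded glycoproteins to degradation, was higher in T than in leukemia target wells by 1.03, but the T plates split into pairs. It had 248.96, 256.4, 64.7 and 95.5 CPM on T target plates 1 to 4, against 63.4, 87.1, 56.6 and 70.1 CPM on the leukemia plates, so plate 3 lay among the leukemia values and plate 4 just above them. Without plate 1 or without plate 2 the count of called members in this comparison was 2 in place of 4, and on plates 1 and 2 alone it was 8. Random T plates had 83.3, 127.9, 92.9 and 114.5 CPM of Edem1, and in FACS wells plate 1 had 223.8 CPM and plate 2 98.1 CPM.

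The same T plates split for other members. Hsp90aa1 and Hsph1 ran the other way, Hsph1 having 157.2 and 150.7 CPM on T target plates 1 and 2 and 263.7 and 254.1 CPM on plates 3 and 4, and on the FACS plates 110.9 and 329.6 CPM. Leukemia target plates had 233.3, 226.7, 251.8 and 201.9 CPM of Hsph1. The median total count of T wells was 35614, 35990, 36730 and 47422 on target plates 1 to 4, and Rn45s took a median of 8.87%, 11.46%, 11.44% and 10.07%; the part of either in the split was not tested.

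Beyond the members, 96 other genes of protein folding and quality control were counted from a list. In target wells 10 of the 89 that passed the filter were higher and 2 lower in T than in leukemia wells. Calu, a calcium-binding protein of the ER lumen, averaged 52.35 CPM in T and 0.1185 CPM in leukemia wells, at least 74.46-fold higher, and Fkbp11 (4.71), an ER prolyl isomerase, and Hspa4l (2.85), an Hsp110, came next; Erp29 (-1.14) and Edem3 (-1.01) were lower. HPC against leukemia gave 1 higher, Calu, at least 40.69-fold, and 9 lower of 87, led by Dnajb4 (-2.43), Edem3 (-1.76) and Hspa13 (-1.63). HPC against T gave 1 higher, Erp29 (1.44), and 11 lower of 88, led by Fkbp11 (-4.40), Ero1l (-2.83) and Hspa4l (-2.40).

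The random set gave 10 higher and 4 lower of 89 for T against leukemia, 3 and 6 of 88 for HPC against leukemia, and 4 and 8 of 89 for HPC against T. In time-lapse wells the counts were 6 and 4 of 89, 3 and 12 of 88, and 3 and 18 of 88, and in FACS wells 12 and 5 of 87, 1 and 8 of 82, and 1 and 12 of 86, in the same order. These counts read against the shares of all genes given above for each comparison.

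Cells picked after time-lapse imaging were set against cells picked at random, each line apart. A gene counted when its mean differed 2-fold and at least 85% of the time-lapse plates lay on 1 side of every random plate. The sets differ in plates and in imaging, which cannot be told apart. For T-profile wells it is also not known whether the line is the same. In leukemia wells 0 members were higher and 0 lower, where 0.894% of 7721 genes were higher and 1.01% lower. At 1.5-fold 1 member was lower, Sdf2l1 (-0.79), a component of a large ER chaperone complex, where 3.34% of all genes were higher and 5.13% lower.

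In T wells 0 members were higher and 3 lower in the time-lapse set, against 9.53% and 10.2% of 8182 genes. Manf, an ER protein secreted under stress, had a lowest, median and highest plate of 83.39, 106.9 and 127.1 CPM in time-lapse wells, against 266.4, 303.5, 267.5 and 276.9 CPM on the random plates (-1.40). Dnaja1 had 128.99, 194.7 and 249.95 CPM in time-lapse wells, against 459.7, 421.6, 383.5 and 396.3 CPM on the random plates (-1.12). Dnajb1 had 33.43, 45.59 and 65.14 CPM in time-lapse wells, against 167.7, 111.8, 103.4 and 131.2 CPM on the random plates (-1.40). In none of these 3 genes did the sets overlap.

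At 1.5-fold 3 members were higher and 11 lower in time-lapse T wells, where 16.3% and 18.2% of all genes were. Hspa5 was the largest of those higher, with 1036.96, 1256.7 and 2638 CPM in time-lapse wells against 725.7, 705.9, 630.1 and 696.5 CPM on the random plates (0.94), and the sets did not overlap. Hsp90ab1 (0.75) and Syvn1 (0.72) were the others. Calr, by contrast, had a mean of 492.3 CPM in time-lapse and 934.8 CPM in random T wells (-0.94), so that BiP and calreticulin, both with an ERSE match, differed in opposite directions.

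T-profile time-lapse wells also differed from random T wells in their markers. Besides Thy1, Anxa2 (72.95 against 357.5 CPM), Lat (145.1 against 464.1 CPM) and Lck (41.88 against 102.9 CPM) were lower, while Bcl11b (388.5 against 321.1 CPM) was not, and Plac8, a marker of the HPC line, was at 32.34 against 0.7899 CPM. Their median total was 58920.5 counts in time-lapse and 44508 in random wells, and their median Rn45s share 11.67% and 8.05%. The part of these in the differences was not tested. Plate 10 of the time-lapse set, with 12 T wells, stood apart from the other 15 with 2638 CPM of Hspa5, 2364 CPM of Hsp90aa1, 6125 CPM of Hsp90ab1 and 752.6 CPM of Hspd1; without it 4 members were lower and 0 higher by the 2-fold rule.

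In HPC wells 1 member was higher and 1 lower, against 4.37% and 8.25% of 8349 genes. Dnajb9 had 3.546, 18.53 and 38.28 CPM as lowest, median and highest of the time-lapse plates, against 3.952, 8.696, 12.5 and 10.71 CPM on the random plates (1.03), and the sets overlapped. It was found in 41.06% of time-lapse HPC wells (exact 95% interval 35.06% to 47.27%) and in 19.82% of random wells (12.86% to 28.46%); thinned to 10000 counts the shares were 20.53% and 8.108%. Without random plate 1, or without time-lapse plate 1, 6, 7, 10 or 12, Dnajb9 no longer counted, which left 1 member. Sdf2l1 had 10.03, 28.97 and 69.6 CPM in time-lapse wells, against 71.14, 87.93, 73.74 and 113.7 CPM on the random plates (-1.42), and all time-lapse plates lay below all random plates.

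At 1.5-fold 2 members were higher and 3 lower in time-lapse HPC wells, where 8.8% and 14.2% of all genes were: Xbp1 (0.80) joined Dnajb9, and Manf (-0.81) and Hspd1 (-0.75) joined Sdf2l1. The 7 genes of ER stress sensing and degradation summed to 566.4 CPM in time-lapse and 407.1 CPM in random HPC wells (SD over plates 144.5 and 117.9), a gap of about the size of the spread between plates. Rn45s took a median of 13.6% of time-lapse and 9.67% of random HPC wells; its part was not tested.

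**Figure D5:**
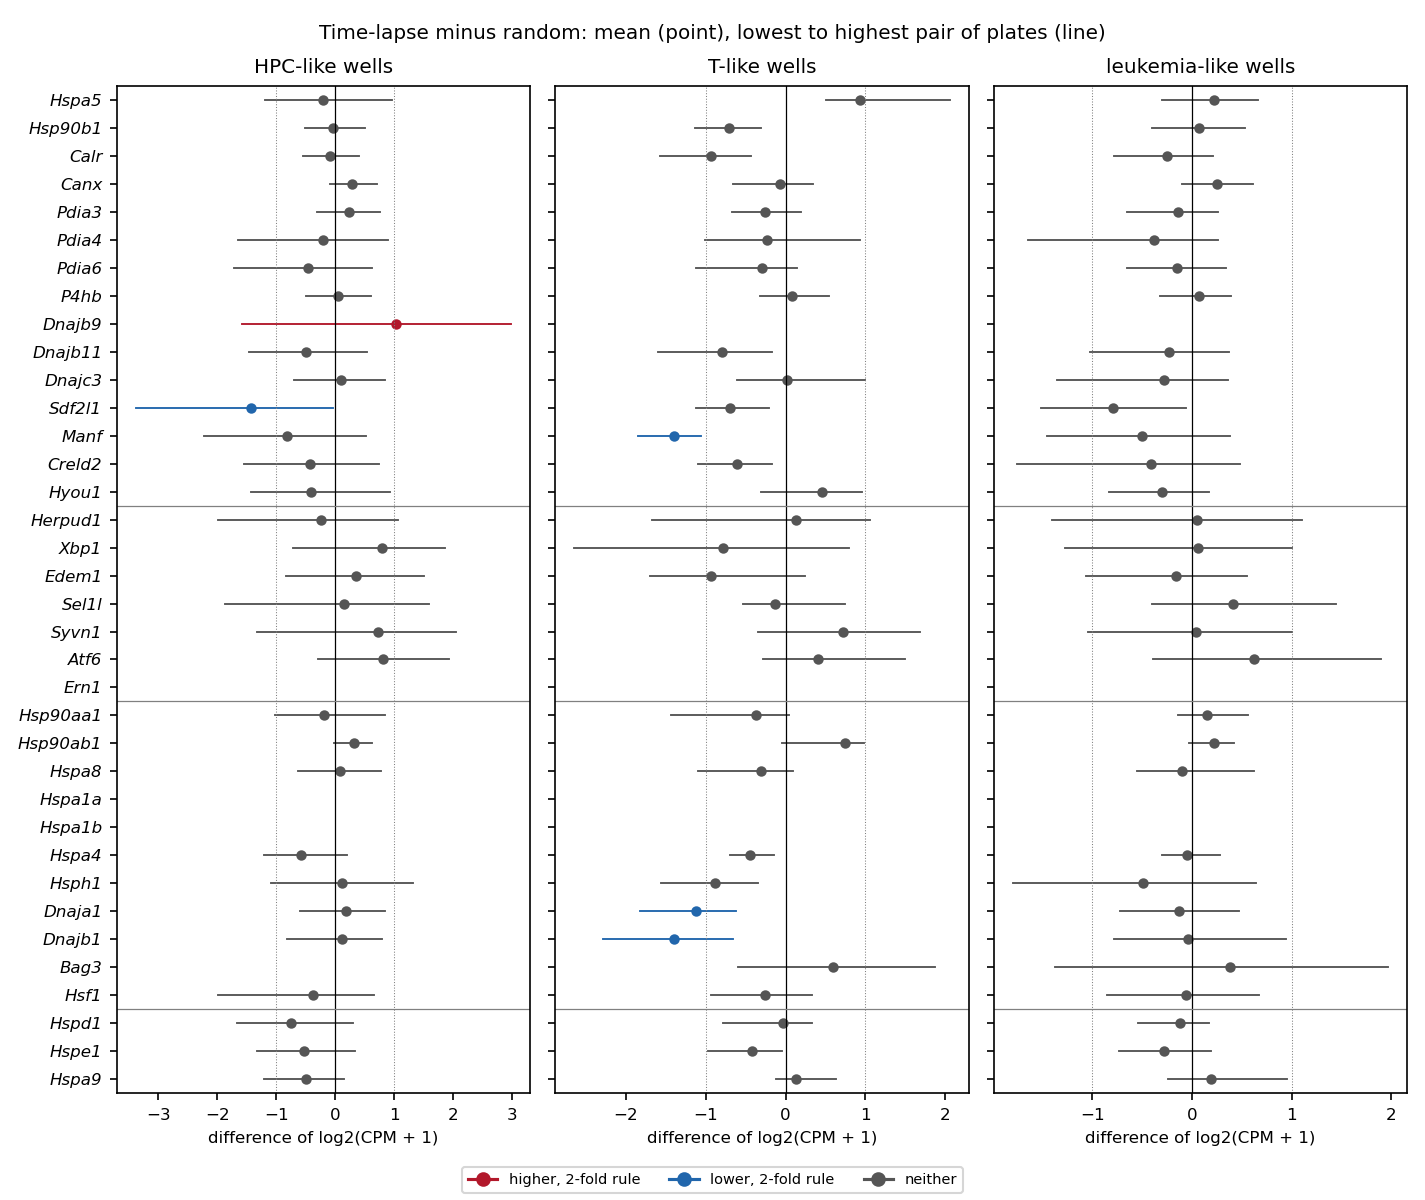
Time-lapse minus random difference of log2(CPM + 1) (x axis) for each member, 1 panel per line; points are differences of means over plates, horizontal lines run from the lowest to the highest pair of plates, and colour marks the 2-fold rule. Leukemia wells show no coloured point, T wells 3 lower members (Manf, Dnaja1, Dnajb1), and HPC wells Dnajb9 higher and Sdf2l1 lower.

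Among the 96 other folding genes, time-lapse wells had 0 higher and 0 lower of 87 in leukemia, 1 and 8 of 88 in T, and 1 and 8 of 88 in HPC wells. In T wells Edem3 was higher (1.19) and Hsbp1 (-2.16), Ahsa1 (-2.06), an activator of Hsp90, and Spcs3 (-1.26) were the lowest. In HPC wells the PERK gene Eif2ak3 was higher (1.60), and Pfdn2 (-1.46) and the mitochondrial proteases Htra2 (-1.29) and Clpp (-1.15) were the lowest.

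Picking by ALPS and sorting by FACS gave no member that passed the rule, which here asked for the same direction in every pair of plates. In target against FACS wells 0 members were higher and 0 lower in HPC (all genes 2.34% and 1.83%), in T (1.28% and 0.559%) and in leukemia wells (0.818% and 0.541%). In HPC wells the FACS plates lay apart, and Hspa5 had 312.3 and 519.5 CPM on the FACS plates, beside 509.7, 585.2, 676.7 and 673.4 CPM on the target plates. HPC wells on FACS plate 1 had a median total of 17052 counts and on plate 2 of 31641, and without FACS plate 2 the HPC comparison would have had 5 higher and 1 lower. Without target plate 2 it would have had 1 higher, and without FACS plate 1 the T comparison 1 higher. Xbp1 was lower in target than in FACS wells in every pair of plates in HPC (-0.72) and leukemia (-0.57), short of 2-fold.

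Random against target wells, both picked by ALPS, also gave 0 higher and 0 lower members in HPC (all genes 2.0% and 0.0873%), T (0.155% and 0.0906%) and leukemia (0.132% and 0.0396%). Among the larger differences were those in T, where Hsph1 (0.67) and Hsf1 (0.62) were higher in random wells in every pair of plates. Hspd1 lay lower in random than in target HPC wells in every pair of plates (-0.45), at 690.1 CPM against 948.4 CPM on average.

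Within a line, levels of pairs of chaperones were correlated across wells to differing degrees. Over the 9 groups of the time-lapse, random and target wells, each of at least 73 wells, Spearman's rho between Hspd1 and Hspe1 was 0.42 to 0.72, and 0.26 to 0.71 after plate means were removed. Hsp90aa1 and Hsp90ab1 had 0.35 to 0.68, Hspa5 and Calr 0.34 to 0.62, and Hspa5 and Hsp90b1 0.27 to 0.61. Hspa8 and Hsp90aa1, both cytosolic, had -0.03 to 0.53. Of the pairs across compartments, Hspd1 and Hsp90ab1 had 0.22 to 0.65 and Hspd1 and Hspa5 -0.09 to 0.37. These describe wells of 1 library each that share a total, and carry no test.

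Single wells spread widely around the plate values. In random wells Hsp90aa1 ran from 1122.1 to 3394 CPM between the 10th and the 90th percentile in HPC, from 3951 to 7725 CPM in T and from 1180.83 to 2274 CPM in leukemia wells. Hspa5 had a median of 427.6 CPM in HPC, 656.5 CPM in T and 552.4 CPM in leukemia wells, with 1 HPC well at 5359 CPM.

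PBMC were sequenced far less deeply and were made into a table of their own, so their levels are set beside those of the lines without a comparison. Wells were clustered and named from marker genes. B cell-like wells numbered 63, wells like NK cells 30 and unnamed wells 31, and the remaining wells were T cell-like. The T cell-like wells joined 1 cluster led by Cxcr6, Rora and Gata3 with another, the larger, which held 8 T cell markers but whose 10 leading genes included 4 airway or lung genes, Scgb1a1, Sftpc, Scgb3a2 and Scgb3a1, beside Lef1. Scgb1a1 was found in 4.286% of the wells of that cluster and each of the other airway genes in fewer. The unnamed cluster held 8 B cell markers, but more monocyte than B cell markers were among its leading genes, S100a9 first.

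Cytosolic chaperones again made up most counts. Hsp90ab1 averaged 2566 CPM over 8 plates in T cell-like and 2944 CPM over 5 plates in B cell-like wells (SD 802.5 and 787.6), Hspa8 1174.15 and 928.2 CPM, and Hsp90aa1 577.4 and 982.5 CPM. The mitochondrial genes were few, so that mitochondrial over cytosolic counts came to 0.04031 in T cell-like and 0.07884 in B cell-like wells. ER over cytosolic counts were 0.4309 and 0.3733.

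By a rule that asked for 2-fold in the counts summed over all wells and the same direction on at least 6 of 8 plates, 2 members were higher and 1 lower in T cell-like than in B cell-like wells, against 16.3% and 5.22% of 2450 genes. Pdia3 had 70 counts in T cell-like and 6 in B cell-like wells (1.33), Dnajc3 (P58IPK), a BiP partner that also restrains PERK, 66 and 6 counts (1.25), and Hspa9 30 and 21 counts (-1.66), the B cell-like wells having the fewer total counts. These members reached the 30 counts of the filter in T cell-like wells alone. T cell-like wells held 538159 counts in total and B cell-like wells 117534, so genes high in T cell-like wells passed the filter more easily. Only 17 of the 36 passed the filter, and the count was 0 without plate 5 and 1 without plate 2, 3, 6, 7 or 8. Plates with fewer than 5 wells of a type counted too, and B cell-like wells reached 5 wells on only 5 plates. Without the cluster with airway genes Pdia3 (1.62) and Dnajc3 (1.62) were higher and 0 members lower. Hspa1a and Hspa1b had 6 and 13 counts in all PBMC wells. Of the 96 other folding genes 37 passed, 1 higher, Os9 (1.21), and 3 lower: the cytosolic chaperonin subunits Cct3 (-1.15) and Cct8 (-1.15), and Mzb1, an ER co-chaperone of antibody-making B cells, with 0 counts in T cell-like and 32 in B cell-like wells, at least 48.84-fold lower.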

How the data were processed

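Single wells of a mixture of 3 mouse cell lines (1836 with values) and of PBMC (346) were counted gene by gene. Time-lapse wells numbered 263 HPC, 316 T and 429 leukemia (1008), random wells 111, 119 and 100 (330), target wells 73, 120 and 126 (319) and FACS wells 52, 64 and 63 (179) in the same order, and 339 PBMC wells were used, 215 of them T cell-like; 119 of 179 FACS wells had another profile than their label. The authors deposited expected counts, estimated molecules per gene and well, not scaled between wells; 5.31% and 5.15% of the positive values were not whole. Per the submitters' processing notes, bcl2fastq and STAR were used with mm10; versions, the counter, the annotation and how molecules were shared between genes are not given in the sources read. Per the labels' protocols, primers carried molecular barcodes and primed at poly(A), so CPM is not per length and levels of single genes are not ranked against each other. Sums and ratios of compartments describe counts, and are to be read between lines. No model for whole counts was run, as each group is 1 sample; values were rounded only for thinning and intervals.

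Counts were summed per line and plate and scaled to CPM, with at least 5 wells, or at least 1 in the PBMC comparison. Differences are of log2(CPM + 1), within plates for lines, between summed counts in PBMC and between plate means otherwise. The rule for lines within plates was tried on simulated counts that varied between plates by depth and counting error alone. The trial does not show how the rule handles plates that differ in other ways. PBMC wells with fewer than 300 genes were left out and the rest clustered with scanpy 1.11.5 (2000 variable genes, 30 components, 15 neighbours, resolution 1, seed 1), and a cluster was named where at least 3 markers of a type, more than of any other type, were each found in at least 20% of its wells and 1.5 times as often as in other wells, unless another type had more markers among its 10 leading genes. No doublet caller was run, since wells were filled 1 cell at a time. No column was left unused (0), and 0 pairs of wells held identical values. All 36 members are accounted for: named were those past the rule, those at the largest and smallest differences and the highest levels in each compartment, and at most 3 other folding genes each way among those past it. Members at intermediate values that are named, and the plate splits, were chosen after their values were seen. Members, lists and rules were chosen with earlier results of these data known. Alternatives were a pseudocount of 5 CPM, no minimum, 1.5-fold, other totals, per-well means, FACS wells by label and each plate left out; leaving out each time-lapse plate against random plates, and the T cell-like cluster with airway genes, were added after seeing the data. Other tools were Python 3.11.15, pandas 2.3.3, numpy 2.4.6, scipy 1.17.1 and matplotlib 3.10.9.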

Additional observations from a re-analysis of the deposited data

Results flagged for a closer look

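Hspe1, the mitochondrial Hsp10, went opposite ways in the HPC and T lines between random and target wells. In HPC wells it was lower in random than in target wells in every pair of plates, at a log2 difference of -0.47, with 494.6 CPM in random and 686.3 CPM in target wells on average. In T wells it was higher in random wells in every pair of plates, at 0.39, with 1087.9 CPM in random and 838.1 CPM in target wells. What set it apart is that every pair of plates of one line moved against every pair of the other; the difference between the lines was not tested. Both differences are under 2-fold.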

How the results depend on the processing

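The differences of called members kept their direction under all alternatives run, and all but 9 of the recomputed values moved by less than 1 SD over plates. Only called members were recomputed, and between lines the rule already asked for the same direction on every plate. Leaving out a plate could not reverse those differences, so the kept directions say little about stability. Of the counts of members past the rule under alternatives other than leaving out a plate, 32 went beyond 1.5 times the reported count. At 1.5-fold the count was 11 (T against leukemia), 10 (HPC against leukemia) and 8 (HPC against T) in target wells, 9, 11 and 16 in random, and 13, 11 and 13 in FACS wells in that order, and 6 and 11 for the first 2 in time-lapse wells; it was 1 (leukemia), 14 (T) and 5 (HPC) for time-lapse against random, 3 for target against FACS in HPC, 2 for random against target in T, and 6 in PBMC. At that fold 15.5% to 30.3% of all genes were past it in 1 direction between lines, 0.356% to 7.01% for target against FACS and random against target, and 22.8% (higher) and 10.2% (lower) in PBMC. A pseudocount of 5 CPM gave 2 for T against leukemia in target wells and 1 for time-lapse against random in HPC wells. With no minimum the count was 2 for HPC against leukemia and 5 for HPC against T in target wells, 7 for HPC against leukemia in FACS wells, 1 each for target against FACS in leukemia and T, and 5 in PBMC. For HPC against leukemia in target wells it was 2 with Rn45s and the members out of the total, 3 with means of per-well CPM and 3 without the 3 wells of another profile. FACS wells taken by label gave 1 in leukemia. Target plates 1 and 2 alone, chosen after seeing the data, gave 8 for T against leukemia and 2 for HPC against leukemia, and plates 3 and 4 alone gave 7 for HPC against T. The cause of these changes was not tested.

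Leaving out each plate in turn gave 2 to 4, 1 to 3 and 2 to 4 in target wells (T against leukemia, HPC against leukemia, HPC against T), 3 to 4, 6 to 7 and 6 to 7 in random, 5 to 5, 0 to 8 and 5 to 9 in FACS, and 2 to 2, 6 to 9 and 8 to 11 in time-lapse wells. It gave 0 to 0, 3 to 4 and 1 to 3 for time-lapse against random (leukemia, T, HPC, each random and each time-lapse plate), 0 to 0, 0 to 1 and 0 to 6 for target against FACS, 0 to 0 for random against target in every line, and 0 to 2 in PBMC. For HPC against leukemia in FACS wells, reported as 4, the count was 8 without plate 2 and 0 without plate 1; without target plate 1, 3 or 4 (each alone) HPC against leukemia gave 3. Lines were compared within plates, so the plate is matched there. No paired analysis was possible because the replicate numbers of the labels only name well positions, and the results come from no test. FACS rests on 2 plates and PBMC on few counts. Ern1, Hspa1a and Hspa1b passed the filter between no lines, and for Dnajb9 under 10 CPM a lower bound is given in place of a difference.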
